A study of Gallus gallus with 858 samples.

Results

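VGLL2-positive epibranchial cells were compared between embryos labelled ss15 and embryos labelled ss11, named for a number of somite pairs. The paper gives each collection stage as a range of neighbouring somite numbers that includes the label, so a label is not an exact count. The cells came from chick embryos electroporated at the head-fold stage and grown in culture outside the egg. The reporter plasmid, Pax2E1-EGFP, expresses green fluorescent protein under an enhancer of Pax2, active in progenitors of the ear and of the epibranchial placodes. Live EGFP-positive cells were sorted 1 by 1, and each gave 1 SmartSeq2 library, a full-length transcript protocol that counts reads and not molecules. A cell was chosen when it had at least 500000 counted reads and 1000 detected genes, at least 10 CPM (reads of a gene scaled to a common total of 1000000 per cell) of VGLL2 and less than 10 CPM of the otic homeobox gene SOHO-1. These limits held for 51 ss15 cells and 21 ss11 cells, 72 of the 508 kept cells of both stages and of the 858 cells in the whole series.

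The epibranchial placodes are thickenings of the head surface ectoderm above the pharyngeal clefts. They give rise to sensory neurons of the geniculate, petrosal and nodose ganglia, which carry taste and visceral sensation. They share a progenitor field with the otic placode, which forms the inner ear, and signals of the FGF, Wnt and BMP families act on that field. VGLL2 encodes a vestigial-like cofactor of TEAD transcription factors, and ISL1 a LIM homeodomain factor of sensory neurons.

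Each stage was a separate experiment with its own sort, and the labels name no embryo, so each stage counts as 1 sample and the sort cannot be told apart from the stage. No test between stages was therefore possible. Reads were summed over the chosen cells of a stage and scaled to CPM, and a log2 fold is the log2 ratio of ss15 over ss11 after 1 CPM was added to both. Intervals are exact 95% intervals, in which reads are treated as independent, and cover counting error only. Electroporation is transient and unequal between cells, and the reporter marks otic as well as epibranchial cells.

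The chosen cells made up 20.7% of the kept ss15 cells (exact binomial interval 15.8 to 26.3) and 8.02% of the kept ss11 cells (5.03 to 12.0). VGLL2 itself, which chose the cells, had a lowest, median and highest value of 16.9, 133.2 and 652 CPM in ss15 cells, against 23.5, 118.8 and 360 CPM in ss11 cells. Among cells with SOHO-1 below 10 CPM, those nearest to the VGLL2 limit had 16.9 CPM inside and 1.35 CPM outside it at ss15. At ss11 they had 23.5 CPM inside and 8.53 CPM outside it. Over all kept cells with VGLL2 below 10 CPM, the highest VGLL2 value was 5.78 CPM at ss15 and 8.53 CPM at ss11. SOHO-1 had no read in any of the 51 ss15 cells and 5.16 CPM in 1 of the 21 ss11 cells. Among cells with at least 10 CPM of VGLL2, the nearest outside the SOHO-1 limit had 26.9 CPM of SOHO-1 at ss15 and 10.3 CPM at ss11. Cells with at least 10 CPM of both genes, which the SOHO-1 limit left out, numbered 11 at ss15 and 10 at ss11.

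**Figure D1:**
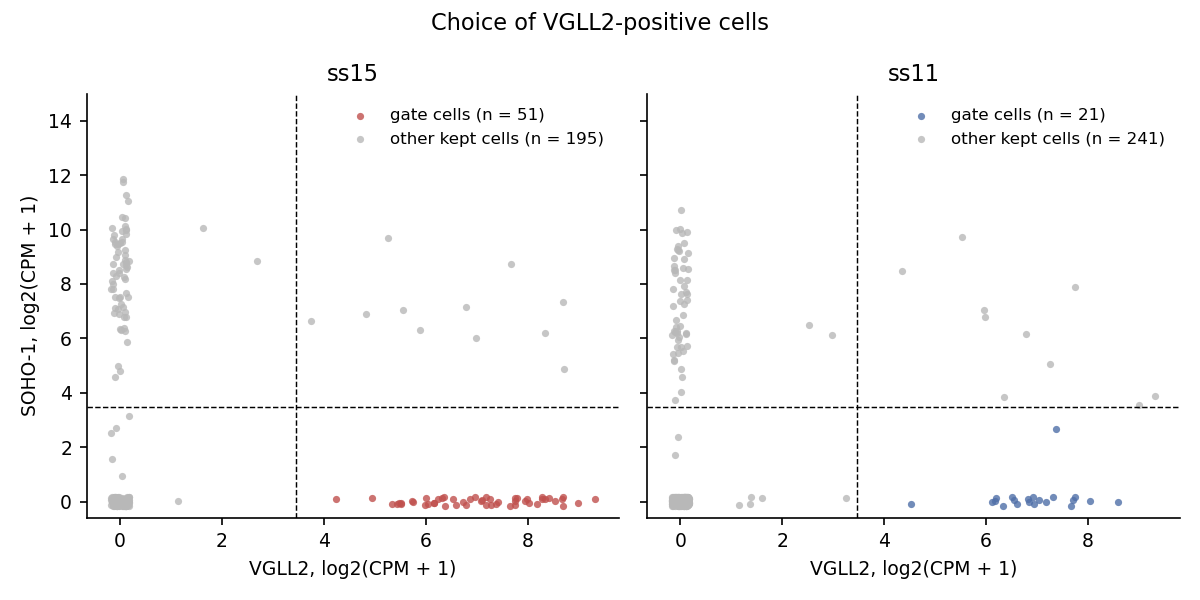
VGLL2 (horizontal) against SOHO-1 (vertical), both as log2(CPM + 1), in the kept ss15 cells (left) and the kept ss11 cells (right), 508 in all. Each point is 1 cell, moved by a small random amount so that cells at 0 can be seen, and dashed lines mark 10 CPM. The 51 ss15 cells and the 21 ss11 cells chosen lie at the lower right, and few cells lie near the VGLL2 limit.

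Depth was similar at both stages. Counted reads per cell had a lowest, median and highest value of 512534, 835013 and 1606116 at ss15, against 555478, 972216 and 1362037 at ss11. The median number of detected genes was 4961 at ss15 and 5136 at ss11, and 4834 at ss15 and 4831 at ss11 once every cell was thinned to 500000 reads. After thinning, the number of cells detecting a gene named here moved by at most 2 at ss15 and 1 at ss11. Reads of the reporter were found in 46 of 51 ss15 cells and in 21 of 21 ss11 cells, with medians of 277.8 CPM at ss15 and 279.5 CPM at ss11. The closest pair of chosen cells had a correlation of 0.729 across genes, so no pair looked like 1 library.

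The label was checked against 8 other epibranchial markers: ISL1, TFAP2E, NELL1, PDLIM1, PRDM1, KRT18, UPK1B and TLX1. Of these, ISL1, NELL1 and PDLIM1 belong to a gene module that the study itself chose on these cells, so the check is not independent. KRT18 was the marker most widely detected in SOHO-1-positive cells without VGLL2, in 67.2% at ss15 and 84.2% at ss11. In the chosen cells it was detected in 76.5% at ss15 and 95.2% at ss11. At least 3 of the 8 were found at 10 CPM or more in 45 of 51 ss15 cells (88.2%) and in 21 of 21 ss11 cells. In the 415 kept cells with VGLL2 below 10 CPM this held for 53 cells at ss15 (28.8%) and 80 cells at ss11 (34.6%). The summed level of the 8 markers was 1115 CPM at ss15 and 1050 CPM at ss11. Per cell it ran over 0, 1005 and 3949 CPM at ss15 (lowest, median, highest), against 124.2, 1093 and 2031 CPM at ss11.

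Some chosen cells of both stages carried markers of other cell types. At least 3 of 6 neural crest markers (PAX7, FOXD3, TFAP2B, DRAXIN, RXRG, EDNRB) were found in 1 of 51 ss15 cells and 0 of 21 ss11 cells. That cell had 221.6 CPM of PAX7, no reporter read and 4 of the 8 epibranchial markers. A different ss15 cell had 3581 CPM of SOX10, 869 CPM of TFAP2B, no reporter read and none of the 8 epibranchial markers. The summed level of the 6 crest markers ran to 1254 CPM in 1 ss15 cell and 299 CPM in 1 ss11 cell, with a median of 0 CPM at both stages. No crest marker reached 10 CPM in 41 of 51 ss15 cells and in 16 of 21 ss11 cells. None of 4 otic markers (SOX8, SOX10, LMX1A and DACT2) reached 10 CPM in 24 of 51 ss15 cells and in 9 of 21 ss11 cells. EDNRB had no read at ss15, and PAX7 and FOXD3 had none at ss11. Of the mesoderm markers, TWIST1 was found at 10 CPM in 1 ss15 cell and no ss11 cell, and SIM1 had no read at either stage. Of the epidermis markers, TP63 was found at 10 CPM in 8 of 51 ss15 cells and 1 of 21 ss11 cells. Its sums were 9.94 CPM at ss15 and 6.31 CPM at ss11. KRT19, also on that list, was found in 48 of 51 ss15 cells and 21 of 21 ss11 cells.

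The epibranchial identity genes were present at near-equal levels at both stages. ISL1 had a sum of 171.05 CPM at ss15 and 177.8 CPM at ss11 (log2 fold -0.06, interval -0.11 to 0.00). It was detected, at 10 CPM or more, in 37 of 51 ss15 cells and 16 of 21 ss11 cells, with medians of 118.01 CPM at ss15 and 116.7 CPM at ss11. PDLIM1, a cytoskeletal adaptor with PDZ and LIM domains, had 240.4 CPM at ss15 and 231.2 CPM at ss11, and was detected in 37 of 51 and 18 of 21 cells. PRDM1, a zinc finger repressor, had 109.1 CPM at ss15 and 108.9 CPM at ss11 and was detected in 30 of 51 ss15 cells and 15 of 21 ss11 cells. NELL1, which encodes a secreted protein, had 172.9 CPM at ss15 and 155.3 CPM at ss11 (log2 fold 0.15). It was detected in 33 of 51 ss15 cells and 15 of 21 ss11 cells. For each of these 4 genes the ss11 cell values lay within the range of the ss15 cells, which were more numerous. The highest cell was an ss15 cell each time (ISL1 1044 CPM at ss15 and 767 CPM at ss11).

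Other epibranchial markers differed more. TFAP2E, an AP-2 family transcription factor, had 33 CPM at ss15 and 46.1 CPM at ss11, with a log2 fold of -0.47, and was detected in 25 of 51 ss15 cells and 15 of 21 ss11 cells. KRT18, a keratin of simple epithelia, had 142.6 CPM at ss15 and 219.6 CPM at ss11 (log2 fold -0.62). KRT18 was also lower at ss15 in SOHO-1-positive cells without VGLL2 (log2 fold -1.02). UPK1B, a tetraspanin of the uroplakin family, had 107.96 CPM at ss15 and 57.9 CPM at ss11 (log2 fold 0.89), and was detected in 28 of 51 and 9 of 21 cells. UPK1B was 2-fold higher once the highest cell of each stage was left out (log2 fold 1.33), which removed 1 of 51 ss15 cells but 1 of 21 ss11 cells. TLX1, a homeobox gene, was the only 1 of the 8 markers past 2-fold in the sums, with 137.8 CPM at ss15 and 53.2 CPM at ss11 (log2 fold 1.36). Its detection share went the other way, 17 of 51 ss15 cells (33.3%) and 8 of 21 ss11 cells (38.1%), so the difference lay in the level among positive cells. TLX1 was at 0.99 on the log2 scale with narrower limits for choosing the cells (VGLL2 at least 20 CPM, SOHO-1 below 5 CPM). The median log2 fold of the 8 markers was 0.03, beside -0.02 over all measured genes.

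Across all genes, 6845 were measured, meaning at least 20 CPM in 1 of the sums and detection in at least 20% of the chosen cells of 1 stage. At ss15, 606 of them (8.85%) were at least 2-fold higher and 582 (8.5%) at least 2-fold lower, which is 17.4% in either direction. The quartiles of the log2 fold were -0.45 and 0.40. Between the kept cells with VGLL2 below 10 CPM, 415 over both stages, 0.595% of genes were 2-fold higher and 0.699% were 2-fold lower, with the summed reads of more cells behind each value. Between SOHO-1-positive cells without VGLL2, 67 at ss15 and 57 at ss11, 2.86% were 2-fold higher and 3.42% were 2-fold lower. The number of cells and the kind of cell cannot be told apart in these shares. Restricted to cells with 1000000 reads, which left 16 ss15 and 8 ss11 cells, the counts were 1270 higher and 1331 lower. When the highest cell of each stage was left out for each gene, 826 were higher and 371 lower, and the median log2 fold was 0.13.

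A symbol was available for few of the measured genes, mostly genes that the study had listed as different between otic and epibranchial cells. Of these genes, 21 (18.6%) were 2-fold higher and 15 (13.3%) were 2-fold lower at ss15. The genes named next are those that were 2-fold different, moved the same way in detection share, and stayed 2-fold different without the highest cell of each stage. Over all measured genes, 8.39% were higher and 5.98% were lower by this stricter rule. Its step without the highest cells favours the higher side, for the reason given above. The stricter rule held for 20 genes with a symbol on the higher side, of which the 15 highest are given, and for 10 on the lower side. Other genes are given only as members of the gene lists.

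Genes of Wnt signalling, which acts through beta-catenin on LEF and TCF factors, stood on both sides. WNT9B, a Wnt ligand, ran over 0, 0 and 277.5 CPM in ss15 cells (lowest, median, highest), against 0, 0 and 106.6 CPM in ss11 cells. It was detected in 23 of 51 ss15 cells (45.1%, 31.1 to 59.7) and in 2 of 21 ss11 cells (9.52%, 1.17 to 30.4). Cells with WNT9B RNA were thus a large share at ss15 and few at ss11, and cells without a read occurred at both stages. The sums were 54.1 CPM at ss15 and 6.16 CPM at ss11, 8.79-fold higher at ss15, with a log2 fold of 2.95 (interval 2.72 to 3.18) and of 3.72 without the highest cell of each stage. A single ss11 cell held 52.8% of the WNT9B reads of ss11. LEF1, the nuclear partner of beta-catenin, had 50.7 CPM at ss15 and 9.86 CPM at ss11 (log2 fold 2.25, and 2.85 without the highest cells). A single ss11 cell held 49.2% of the LEF1 reads of ss11. LEF1 was detected in 15 of 51 ss15 cells and 3 of 21 ss11 cells, with highest cells of 547 CPM at ss15 and 78.3 CPM at ss11.

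DACT2, a Dishevelled-binding modulator of Wnt signalling, had 34.7 CPM at ss15 and 12.6 CPM at ss11 (log2 fold 1.39) and was found in 11 of 51 and 3 of 21 cells. The 5 ss15 cells without a reporter read held 47.9% of the DACT2 reads of ss15, and among cells with at least 10 CPM of the reporter the log2 fold was 0.28. SFRP1, a secreted Wnt antagonist, was lower at ss15, with cell values of 0, 0 and 510 CPM at ss15 (lowest, median, highest), against 0, 64.9 and 624 CPM at ss11. SFRP1 was detected in 15 of 51 ss15 cells and 12 of 21 ss11 cells, and its sums of 49.8 CPM at ss15 and 141.4 CPM at ss11 gave a log2 fold of -1.49 (-0.72 in cells with 1000000 reads). Of the Wnt genes listed, 11 had an identifier and 7 were measured, of which 3 were 2-fold higher and 1 was 2-fold lower, with a median log2 fold of 0.24. Beside this stand 8.85% higher and 8.5% lower over all measured genes, and 18.6% higher and 13.3% lower over genes with a symbol. The other 3, WNT11, SOSTDC1 and TRABD2A, did not reach 2-fold.

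Among other signals, BMP2, a ligand of the BMP family, had 40.01 CPM at ss15 and 9.26 CPM at ss11. It was detected in 15 of 51 ss15 cells and 3 of 21 ss11 cells, with highest cells of 689 CPM at ss15 and 143.7 CPM at ss11. The log2 fold was 2.0, and 2.59 without the highest cells, where a single ss11 cell had held 60% of the BMP2 reads of ss11. BMP2 was the only gene of the BMP and TGF beta list with both an identifier and a measured level. Within ss15, 5 cells held both LEF1 and BMP2, 10 held LEF1 alone, 10 held BMP2 alone and 26 held neither.

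**Figure D2:**
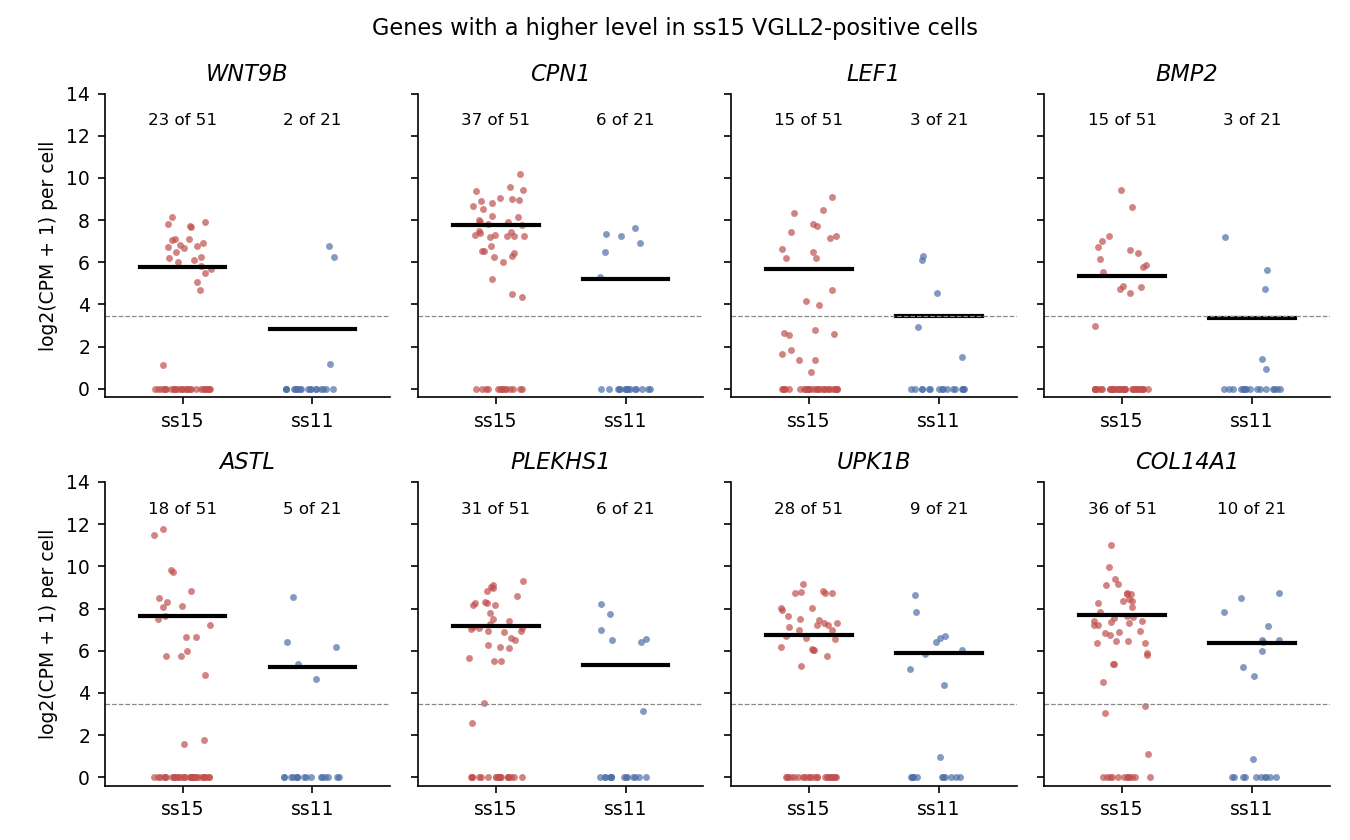
Level per cell as log2(CPM + 1) of 8 genes in the 51 ss15 cells (left, red) and the 21 ss11 cells (right, blue). Each point is 1 cell, the black bar is the CPM of the summed reads, the dashed line marks 10 CPM, and the numbers above give the cells at or over it. CPN1 was found in 37 of 51 ss15 cells and 6 of 21 ss11 cells, and cells with no read occur at both stages for every gene shown.

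The other named higher genes belonged to no signalling list. CPN1, the catalytic subunit of carboxypeptidase N, ran over 0, 148.2 and 1152 CPM in ss15 cells (lowest, median, highest), against 0, 0 and 196.1 CPM in ss11 cells. It was detected in 37 of 51 ss15 cells (72.5%, 58.3 to 84.1) and 6 of 21 ss11 cells (28.6%, 11.3 to 52.2). Most ss15 cells but only a minority of ss11 cells therefore carried CPN1 RNA. The sums of 213.1 CPM at ss15 and 35.7 CPM at ss11 gave a log2 fold of 2.54 (2.44 to 2.65). PLEKHS1, a protein with a pleckstrin homology domain, was found in 31 of 51 ss15 cells and 6 of 21 ss11 cells, with 141.9 CPM at ss15 and 38.8 CPM at ss11 (log2 fold 1.84). CPN1 and PLEKHS1 were found together in 24 of 51 ss15 cells and 2 of 21 ss11 cells.

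COL14A1, a fibril-associated collagen, ran over 0, 111.98 and 2056 CPM in ss15 cells (lowest, median, highest), against 0, 0.796 and 423 CPM in ss11 cells. Its sums were 204.2 CPM at ss15 and 81.4 CPM at ss11 (log2 fold 1.32, and 0.66 in cells with 1000000 reads). LARGE2, a glycosyltransferase that extends the glycan of dystroglycan, had 118.7 CPM at ss15 and 42.1 CPM at ss11 and was found in 26 of 51 and 5 of 21 cells. GJB6, the gap junction protein connexin 30 of mammals, had 56.04 CPM at ss15 and 20.7 CPM at ss11 (log2 fold 1.39), with detection in 13 of 51 ss15 cells and 5 of 21 ss11 cells. GJB6 was below 2-fold among cells that also had ISL1 (log2 fold 0.80).

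CYP4F22, in human a fatty acid hydroxylase of the skin barrier, had 37.5 CPM at ss15 and 5.10 CPM at ss11 (log2 fold 2.66). A single ss15 cell held 48.02% of its ss15 reads, and a single ss11 cell held 78.4% of its ss11 reads. The log2 fold was 3.29 without the highest cells and 0.83 among cells with ISL1. TMEM171, a membrane protein, was found in 20 of 51 ss15 cells and 2 of 21 ss11 cells, with 32.4 CPM at ss15 and 5.05 CPM at ss11. EFHD2, a calcium-binding protein, LYPD6B, a protein with a Ly6 domain, and MSANTD1 had log2 folds of 1.93, 1.65 and 1.33. They were detected in 13, 18 and 22 of 51 ss15 cells, and in 2, 3 and 4 of 21 ss11 cells.

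ASTL, a metalloprotease of the astacin family, was unevenly distributed over cells. It ran over 0, 0 and 3467 CPM in ss15 cells (lowest, median, highest), against 0, 0 and 369 CPM in ss11 cells, and was found in 18 of 51 ss15 cells (35.3%) and 5 of 21 ss11 cells (23.8%). One ss15 cell held 32.8% of the ss15 reads and 1 ss11 cell 69.3% of the ss11 reads. The log2 fold was 2.40, and 3.55 without the highest cells. Elsewhere ASTL was lower at ss15, with 52.9 CPM at ss15 and 499.9 CPM at ss11 in the kept cells with VGLL2 below 10 CPM.

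FGF18, a secreted growth factor, was lower at ss15 in the sum, in the share of positive cells and in the median. Its cell values were 0, 4.0 and 159.6 CPM at ss15 (lowest, median, highest), against 0, 115.2 and 535 CPM at ss11. It was detected in 23 of 51 ss15 cells (45.1%, 31.1 to 59.7) and in 19 of 21 ss11 cells (90.5%, 69.6 to 98.8). The ranges overlapped, and the ss11 median lay above the third quartile of the ss15 cells, which was 64.2 CPM. The sums of 29.8 CPM at ss15 and 192.4 CPM at ss11 were 6.46-fold apart, with a log2 fold of -2.65 (-2.74 to -2.56), and no ss15 cell held more than 9.24% of the reads. FGF18 was also lower at ss15 in SOHO-1-positive cells without VGLL2, with 17.3 CPM at ss15 and 36.6 CPM at ss11 (log2 fold -1.04). In the kept cells with VGLL2 below 10 CPM its log2 fold was -0.59. FGF8, the other measured FGF gene, had 69.5 CPM at ss15 and 105.99 CPM at ss11 (log2 fold -0.60). One ss11 cell held 49.6% of the FGF8 reads of ss11, and the log2 fold was 0.12 without the highest cells.

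Transcription factors with placodal or otic roles stood on both sides, with TLX1 higher as given above. GATA3, a zinc finger factor of ear and placode development, had cell values of 0, 27.6 and 930 CPM at ss15 (lowest, median, highest), against 0, 257.4 and 608 CPM at ss11. It was detected in 28 of 51 ss15 cells (54.9%) and 18 of 21 ss11 cells (85.7%). The sums of 88.8 CPM at ss15 and 232.7 CPM at ss11 gave a log2 fold of -1.38 (-1.44 to -1.32), with -0.82 in cells with 1000000 reads and -0.96 in cells with ISL1. In the kept cells with VGLL2 below 10 CPM the GATA3 value had the other sign, with 97.05 CPM at ss15 and 62.7 CPM at ss11 (log2 fold 0.62). The same sign was found in SOHO-1-positive cells, with 165.5 CPM at ss15 and 106.7 CPM at ss11. The difference between the sets of cells was not tested.

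SOX8, a SoxE factor of the otic placode, was low in the chosen cells at both stages, with 17.7 CPM at ss15 and 54.9 CPM at ss11. It was detected in 12 of 51 ss15 cells and 10 of 21 ss11 cells, and the log2 fold was -1.58 (-1.70 to -1.45). In the 16 ss15 and 8 ss11 cells with 1000000 reads it had the other sign (log2 fold 0.40). In SOHO-1-positive cells SOX8 had 242.03 CPM at ss15 and 265.96 CPM at ss11. The other otic markers had higher sums at ss15. DACT2, given above with the Wnt genes, is also an otic marker and was 2-fold higher, while SOX10 and LMX1A were not measured by the limits above. SOX10 had 94.3 CPM at ss15 and 16.7 CPM at ss11 and was detected in 5 of 51 ss15 cells and 4 of 21 ss11 cells, and the cell described above held 85.3% of its ss15 reads. LMX1A, a LIM homeodomain factor, was found in 10 of 51 ss15 cells and 1 of 21 ss11 cells, with 21.3 CPM at ss15 and 2.90 CPM at ss11.

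NKX2-5, a homeobox factor best known from the heart, had 13.5 CPM at ss15 and 29.4 CPM at ss11 (log2 fold -1.07, and -0.87 without the highest cells). SNAI1, a zinc finger repressor of epithelial genes, was found in 5 of 51 ss15 cells and 6 of 21 ss11 cells (log2 fold -1.49, and -0.93 without the cells that had SOX10). Of the placode transcription factors listed, 12 had an identifier and 6 were measured, of which 1 was 2-fold higher (TLX1) and 2 were 2-fold lower (GATA3 and NKX2-5), with a median log2 fold of -0.23, beside the same 18.6% higher and 13.3% lower of genes with a symbol.

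**Figure D3:**
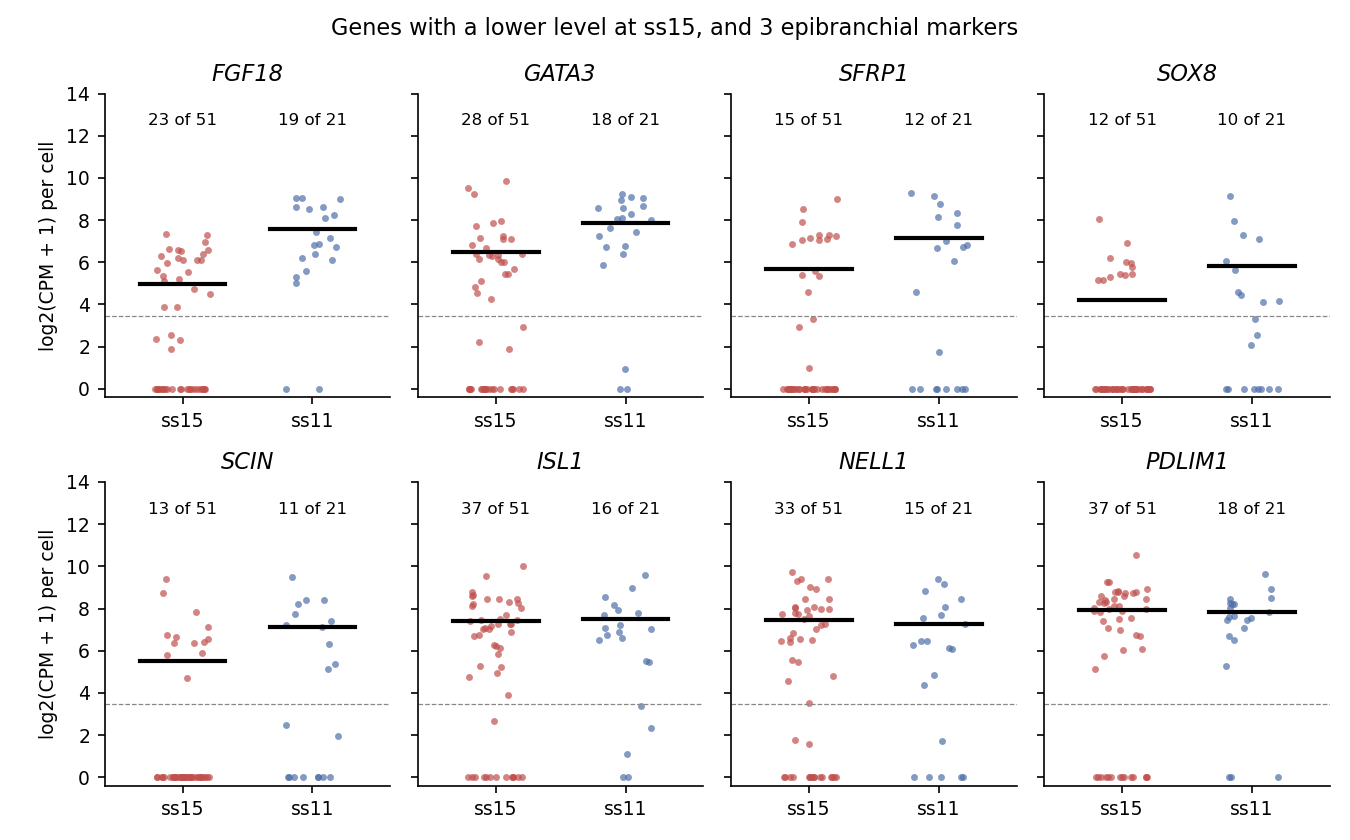
Level per cell as log2(CPM + 1) of 5 genes with a lower sum at ss15 (FGF18, GATA3, SFRP1, SOX8, SCIN) and of the epibranchial markers ISL1, NELL1 and PDLIM1, in the 51 ss15 cells (left, red) and the 21 ss11 cells (right, blue). Points, bars, dashed line and numbers are as in the plot of higher genes. FGF18 was found in 23 of 51 ss15 cells and 19 of 21 ss11 cells, while ISL1 was found in 37 of 51 and 16 of 21.

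The other named lower genes had varied roles. SCIN, an actin-severing protein, had cell values of 0, 0 and 665 CPM at ss15 (lowest, median, highest), against 0, 34.5 and 727 CPM at ss11. Its log2 fold was -1.62, and SCIN was also lower at ss15 in the SOHO-1-positive cells (log2 fold -1.84). TNNC2, the calcium-binding troponin of fast muscle, had 15.4 CPM at ss15 and 56.2 CPM at ss11 (log2 fold -1.80). CNKSR1, a scaffold protein of Ras signalling, RNF152, a ubiquitin ligase, and GSTT1, a glutathione transferase, had log2 folds of -1.74, -1.72 and -1.49. They were detected in 7, 5 and 6 of 51 ss15 cells, and in 9, 8 and 9 of 21 ss11 cells. Of the 5 measured cytoskeletal genes, SCIN alone reached 2-fold. GSTT1 was at -0.47 among cells with ISL1 and at -0.91 in cells with 1000000 reads.

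Most measured epithelial genes did not reach 2-fold, and their levels varied widely. EPCAM, an epithelial adhesion protein, had 1004 CPM at ss15 and 1379 CPM at ss11 and was detected in 47 of 51 and 18 of 21 cells. KRT19, a keratin, was found in 48 of 51 ss15 cells and 21 of 21 ss11 cells, with 602 CPM at ss15 and 759 CPM at ss11. EZR, which ties actin to the membrane, had 496 CPM at ss15 and 739 CPM at ss11 (log2 fold -0.58). Of the 9 measured genes of epithelial junctions, only DSP, the desmosomal linker desmoplakin, reached 2-fold, with 210.3 CPM at ss15 and 103.1 CPM at ss11 (log2 fold 1.02). DSP was detected in 34 of 51 ss15 cells and 10 of 21 ss11 cells. It was just below 2-fold with narrower limits for choosing the cells (log2 fold 0.96), and at 0.32 in cells with 1000000 reads. The median log2 fold was -0.17 over the 9 junction genes and -0.33 over the 3 keratins KRT7, KRT18 and KRT19.

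Genes that respond to cell handling were followed as a sign of stress. FOS, an immediate early gene, had 32.1 CPM at ss15 and 69.5 CPM at ss11 (log2 fold -1.09). One ss11 cell held 48.02% of its ss11 reads, and the log2 fold was -0.58 without the highest cells and -0.15 without the cells that had SOX10. JUN, its partner, had 19.3 CPM at ss15 and 34.6 CPM at ss11, and the chaperone HSPA2 had 1742 CPM at ss15 and 1369 CPM at ss11. The part of these genes in the other differences was not tested.

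Among 11 measured genes of the epibranchial module, a list which the study itself chose on these cells, 2 were 2-fold higher (WNT9B and DSP) and none was 2-fold lower, with a median log2 fold of 0.15. This share was near the 18.6% of all genes with a symbol that were 2-fold higher. IFI27L1, named for its relation to an interferon-induced gene, was among the most widely detected members, in 42 of 51 ss15 cells and 14 of 21 ss11 cells. Its sums were 68.3 CPM at ss15 and 36.2 CPM at ss11 (log2 fold 0.90). Genes of other lists that were measured stayed below 2-fold. AGR2, a protein disulphide isomerase of secretory cells from the secretory pathway list, had 222.8 CPM at ss15 and 133.1 CPM at ss11 (log2 fold 0.74). HEYL, a target of Notch signalling, had 148.5 CPM at ss15 and 130.6 CPM at ss11. UNC5B, a netrin receptor, had 308 CPM at ss15 and 375 CPM at ss11, and the chemokine CXCL12 had 76.2 CPM at ss15 and 64.3 CPM at ss11. Of 7 otic module genes with an identifier, chosen by the study on the same cells, SOX8 and MYL4 were measured, and MYL4, a myosin light chain, had a log2 fold of 0.32.

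**Figure D4:**
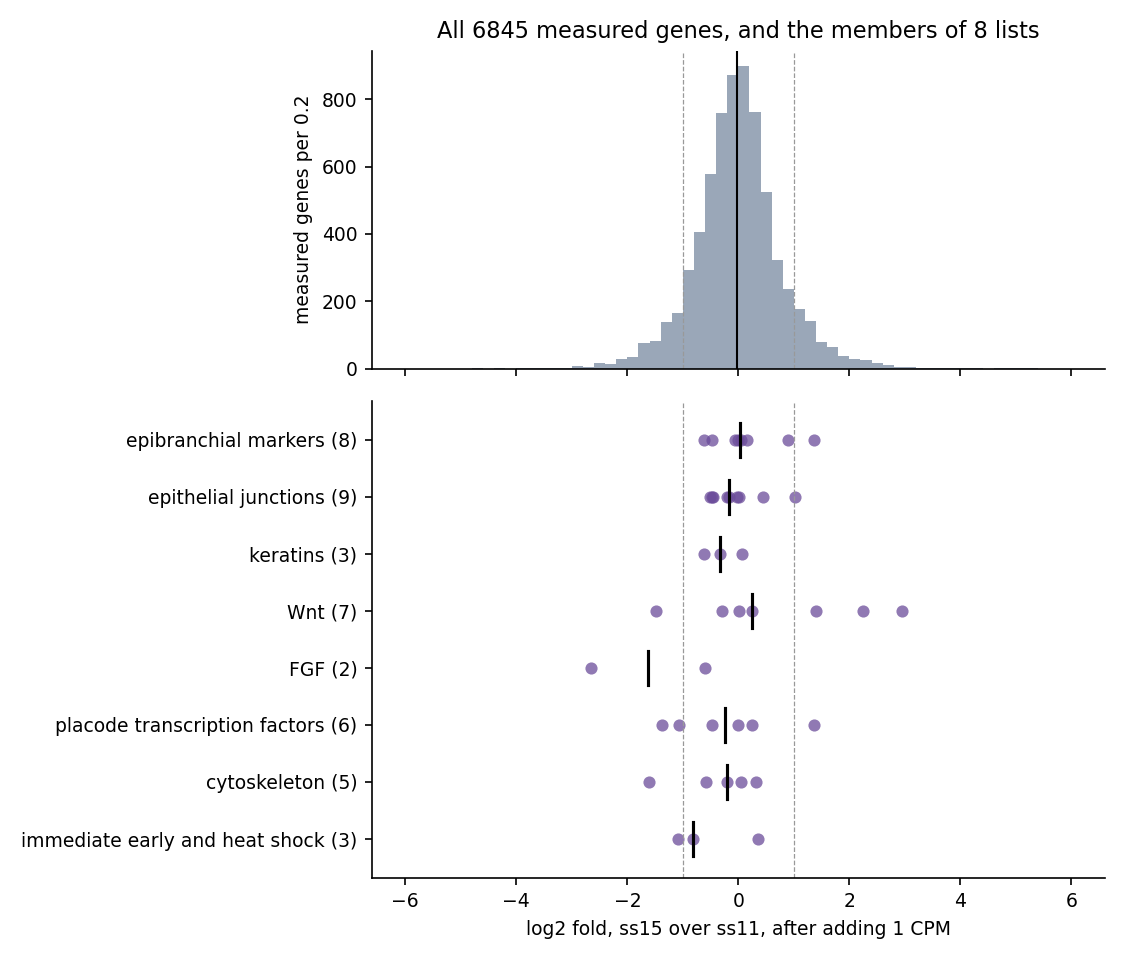
Log2 fold of ss15 over ss11 for all 6845 measured genes (histogram, bars of 0.2 on the log2 scale, black line at the median) and for the measured members of 8 gene lists (points, with the number of members in brackets and a black bar at each median). Dashed lines mark 2-fold. The 8 epibranchial markers have a median of 0.03, and the 7 Wnt genes spread on both sides of 0 with 3 past 2-fold higher and 1 past 2-fold lower.

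The genes that were 2-fold different in the chosen cells were also looked up in the other cells, where few genes of any kind reached 2-fold. Of the 606 higher genes, 494 were measured in the kept cells with VGLL2 below 10 CPM, and 7 of them were 2-fold higher there too, beside 0.595% of all genes measured there. Of the 582 lower genes, 419 were measured there and 5 were 2-fold lower, beside 0.699% of all genes. In SOHO-1-positive cells, 477 of the higher genes were measured, of which 22 were 2-fold higher and 32 were 2-fold lower at ss15, beside 2.86% higher and 3.42% lower of all genes measured there. Of the 435 lower genes measured there, 26 were 2-fold lower and 17 were 2-fold higher. WNT9B and TLX1 were not measured by the limits above in either set, so their values rest on few cells. WNT9B had 15.5 CPM at ss15 and 2.85 CPM at ss11 in the kept cells with VGLL2 below 10 CPM. It was detected there in 5.43% of ss15 cells and 3.9% of ss11 cells. WNT9B had no read in SOHO-1-positive cells of either stage. TLX1 had 66.8 CPM at ss15 and 11.2 CPM at ss11 in the cells with VGLL2 below 10 CPM. It was detected there in 9.24% of ss15 cells and 6.06% of ss11 cells. In SOHO-1-positive cells TLX1 was detected in 8.96% at ss15 and 5.26% at ss11, with 43.5 and 4.64 CPM. None of these differences between sets of cells was tested.

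**Figure D5:**
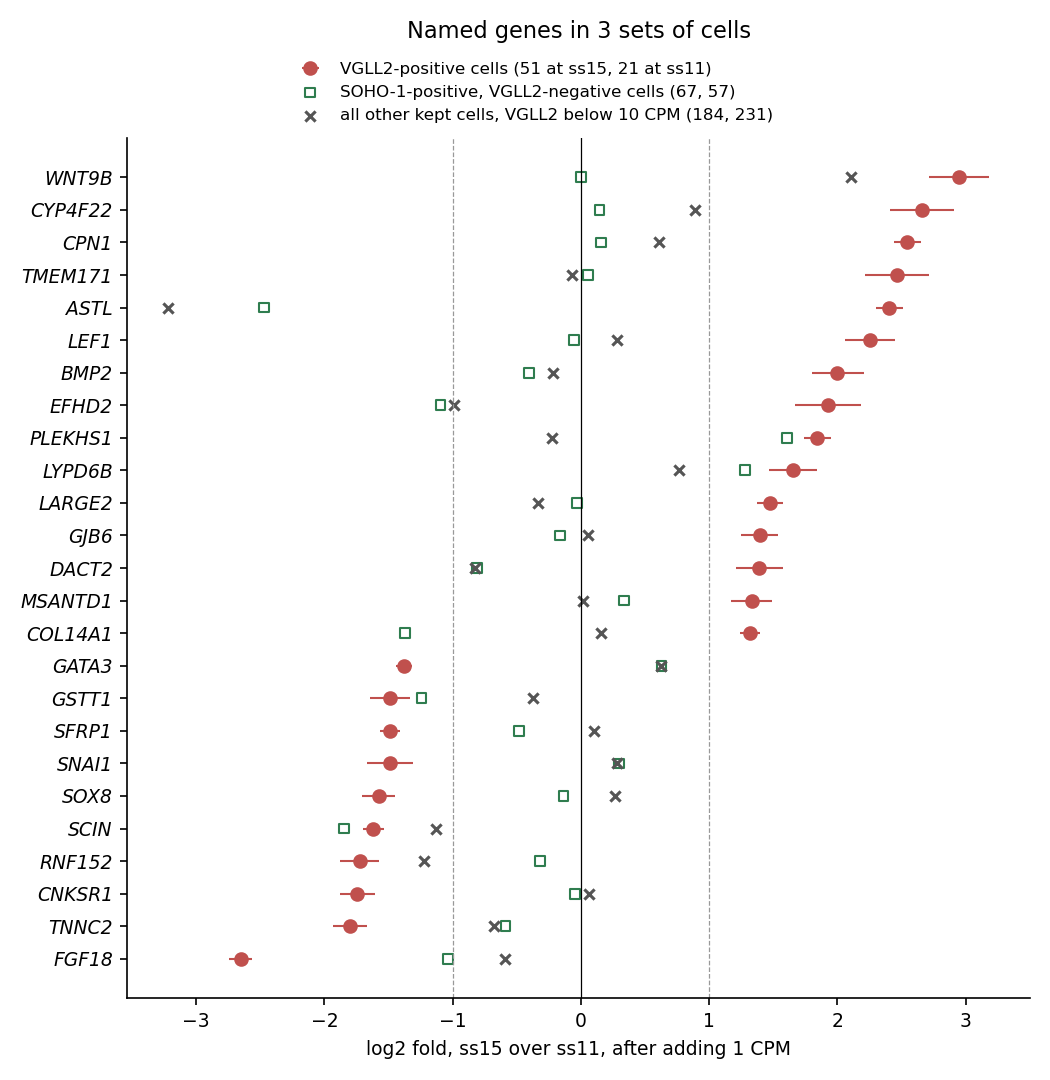
Log2 fold of ss15 over ss11 (horizontal) of the 15 highest and 10 lowest named genes in 3 sets of cells. Red points are VGLL2-positive cells (51 at ss15, 21 at ss11) with 95% counting intervals, green squares SOHO-1-positive cells without VGLL2 (67 at ss15, 57 at ss11) and grey crosses all kept cells with VGLL2 below 10 CPM (415 over both stages), which hold the SOHO-1-positive ones. ASTL lies at 2.40 in the VGLL2-positive cells and at -2.47 in the SOHO-1-positive cells, and GATA3 lies at -1.38 and 0.63. WNT9B, CYP4F22, PLEKHS1, LYPD6B, GJB6, MSANTD1, RNF152 and GSTT1 were below the limits for a measured gene in both other sets. CNKSR1 and SNAI1 were below them in the cells with VGLL2 below 10 CPM. The WNT9B square at 0 stands for no read at either stage.

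The cells of 1 stage were mixed for these genes. Of the 15 higher genes, an ss15 cell held between 1 and 10 with a median of 6, and an ss11 cell between 0 and 7 with a median of 3. Of the 10 lower genes, an ss15 cell held between 0 and 7 with a median of 2, and an ss11 cell between 1 and 10 with a median of 5. Both sets of genes were chosen by their detection share in these same cells, which fixed the order of the medians. Only the spread from cell to cell is therefore of interest here. The following pairs were chosen after the values were seen. Counts of pairs, here and above, depend on how many cells held each gene by itself. Whether any pair was found together more or less often than those shares give was not tested. FGF18 and GATA3 were found together in 16 of 51 ss15 cells and 17 of 21 ss11 cells. FGF18 and CPN1, which lie on opposite sides, were found together in 20 of 51 ss15 cells and 6 of 21 ss11 cells. At ss15, FGF18 was found in 23 and CPN1 in 37 of the 51 cells, and 3 cells held FGF18 without CPN1. WNT9B and CPN1 were found together in 17 of 51 ss15 cells and in 0 of 21 ss11 cells. ISL1 and WNT9B were found together in 18 of 51 ss15 cells and 2 of 21 ss11 cells.

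Genes with larger differences had no symbol in the sources used. ENSGALG00000005772 had 39.1 CPM at ss15 and no read at ss11, where the interval reached 0.185 CPM. With 3 reads put in as a floor over the ss11 sum, the difference was 260.4-fold, a value that depends on that floor. Over the alternatives tried, the log2 fold of ENSGALG00000005772 ran from 2.30 to 5.74, and a single ss15 cell held 20.4% of its ss15 reads. The gene was found in 13 of 51 ss15 cells (25.5%, 14.3 to 39.6) and 0 of 21 ss11 cells (0 to 16.1%). ENSGALG00000038848 had 34.9 CPM at ss15 and no read at ss11, 232.5-fold with the same floor, and was found in 11 of 51 ss15 cells. Its log2 fold ran from 2.17 to 5.33 over the alternatives, and a single ss15 cell held 39.3% of its ss15 reads. In the kept cells with VGLL2 below 10 CPM, ENSGALG00000038848 was lower at ss15, with 33.5 CPM at ss15 and 54.7 CPM at ss11. On the other side, ENSGALG00000032598 had 1.13 CPM at ss15, all from 1 cell, and 57.9 CPM at ss11 in 7 of 21 cells. ENSGALG00000005613 had 0.0444 CPM at ss15 and 20.2 CPM at ss11, where it was found in 6 of 21 cells.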

How the data were processed

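Counts of reads per gene and cell, and of reporter reads, were used as the authors deposited them. Per their notes and methods, the reads had passed through Cutadapt 2.10 for trimming, HISAT2 2.2.1 for alignment (chick galGal6 plus GFP), SAMtools 1.10 and HTSeq 0.12.4 for counting. The somite stage per cell is another deposited column. SmartSeq2 has no molecular identifiers and no strand, so counts include PCR copies, overlapping genes cannot be separated and intervals cover counting error only. The authors' limit on mitochondrial reads was not applied. Doublets were left to the single-cell sort gate.

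Cells, gate and gene limits are given with the results. The cells, gene lists and alternatives were chosen with earlier results of these data known. Named genes were the 15 highest and up to 15 lowest log2 folds among genes with a symbol that passed the stricter rule, with set markers and up to 4 measured genes per list. A further 4 identifiers without a symbol, and pairs of genes in the same cell, were chosen after the values were seen. The study's tables gave the 331 identifiers used here a symbol, as names only, and 1 further gene is not reported here. No gene of the cell cycle, glycolysis, neural or blood lists had one. No sequence was used here.

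Python 3.11.15, pandas 2.3.3, NumPy 2.4.6 and SciPy 1.17.1 were used, with TMM factors from edgeR 4.0.16 in R 4.3.3. The fold calculation was tested on simulated data. Other scalings, filters, pseudocounts, thinning to 500000 reads and other choices of cells were tried as alternatives.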

Additional observations from a re-analysis of the deposited data

Results flagged for a closer look

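For 3 of the named genes the sums differed by 2-fold or more in opposite directions between ss15 and ss11 in VGLL2-positive cells and in SOHO-1-positive cells without VGLL2. With 1 sample per stage the differences were not tested. ASTL had a log2 fold of 2.40 in VGLL2-positive cells and -2.47 in SOHO-1-positive cells, a difference of 4.87. EFHD2 had 1.93 in VGLL2-positive cells and -1.10 in SOHO-1-positive cells, a difference of 3.02. One ss15 cell held 42.1% of the EFHD2 reads of the VGLL2-positive ss15 cells, and only 2 of 21 ss11 cells had it at 10 CPM. COL14A1 had 1.32 in VGLL2-positive cells and -1.37 in SOHO-1-positive cells, a difference of 2.69. In VGLL2-positive cells COL14A1 was below 2-fold with a VGLL2 limit of 5 CPM (log2 fold 0.96) and with 1000000 reads (log2 fold 0.66).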

How the results depend on the processing

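The share of measured genes 2-fold higher and lower at ss15 was 8.85% and 8.5%. It was 6.33% and 7.53% of 4394 genes with a minimum of 50 CPM, 14.7% and 12.1% of 17615 genes with no minimum (2598 and 2135 genes), and 5.29% and 5.41% with a pseudocount of 10 CPM (362 and 370 genes). It was 18.1% and 18.9% in cells with 1000000 reads and 2000 genes (1270 and 1331 genes). Leaving out the highest cell of each stage gave 826 higher and 371 lower genes, 5.94% lower. The median log2 fold of -0.017 was 0.013 with TMM scaling, 0.038 with no minimum and 0.13 without the highest cells. The remaining alternatives, of which 3 were chosen after seeing the data (cells with 10 CPM of the reporter, cells with 3 epibranchial markers, no cells with 3 crest markers), moved neither count by more than 1.5 times. SOX8 was the only 1 of 33 named 2-fold genes to change sign, to 0.40 in cells with 1000000 reads. That setting left 7 of the 33 below 2-fold, cells with ISL1 and the pseudocount of 10 CPM left 5 each, and the others at most 3. Shares of kept cells that were VGLL2-positive stayed within their counting intervals. No paired analysis was possible because each stage is 1 sample without a replicate.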

Other observations

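VGLL2-positive cells were also set against the kept cells of the same stage with VGLL2 below 10 CPM, as a description after the values were seen. Of the genes with a symbol measured at both stages, 30 (28.3%) were 2-fold higher in VGLL2-positive cells at both stages and 16 (15.1%) were 2-fold lower, beside 1.32% higher and 1.69% lower of all 6438 genes measured. Most genes with a symbol had been listed by the study as different between otic and epibranchial cells. The larger shares among them are therefore set in part by that choice of genes and by the choice of cells. FGF8 and WNT11, given next, are members of the epibranchial module chosen by the study on these cells. FGF8, a ligand of the FGF family, had 69.5 CPM in VGLL2-positive cells and 4.37 CPM in the others at ss15, and 105.99 CPM in VGLL2-positive cells and 4.90 CPM in the others at ss11. WNT11, a Wnt ligand, had 56.4 CPM in VGLL2-positive cells and 13.8 CPM in the others at ss15, and 47.4 CPM in VGLL2-positive cells and 5.06 CPM in the others at ss11. FA2H, which hydroxylates fatty acids, was detected in 84.3% of VGLL2-positive cells and 23.9% of the others at ss15, and in 76.2% of VGLL2-positive cells and 30.7% of the others at ss11. COL9A3, a collagen of cartilage and the ear, had 0.377 CPM in VGLL2-positive cells and 100.4 CPM in the others at ss15, and 0.0500 CPM in VGLL2-positive cells and 65.04 CPM in the others at ss11. ZEB2, a zinc finger repressor, was detected in 5.88% of VGLL2-positive cells and 35.3% of the others at ss15, and in 0 of 21 VGLL2-positive cells (no read) and 39.8% of the others at ss11.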
